A study of Mus musculus with 8 samples.

Results

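Dopamine receptors and the enzymes that make and break down dopamine were followed in ribosome-bound mRNA of glutamatergic neurons of the mouse ventral pallidum (VP). The genes were chosen by symbol, as 4 dopamine receptor genes (Drd1, Drd2, Drd3 and Drd5), 2 genes of dopamine synthesis (Th and Ddc) and 2 genes of monoamine breakdown (Maoa and Maob). Values were found for 7 of these 8 genes, among 14353 genes with values in all. Drd3 had no row in the table and was not analysed here.

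The study used RiboTag mice, in which Cre switches on a hemagglutinin-tagged form of the ribosomal protein Rpl22, and an antibody against the tag pulls down the ribosomes of Cre-expressing cells with their bound mRNA. All mice were homozygous for VGluT2-Cre, which is driven by the locus of the vesicular glutamate transporter, heterozygous for the tagged Rpl22, and untreated. The 8 libraries came from 4 pools of tissue of both sexes (38 mice, 15 male and 23 female): VP1.6 with 7 mice, VP2.2 with 10, VP2.6 with 11 and VP2.11 with 10. Mice were 9 to 12 weeks old in VP1.6 and 10 to 16 weeks old in the others. Each pool gave 1 TRAP library, labelled as glutamatergic neurons, and 1 INPUT library, labelled as all neurons and glia of the same tissue (n = 4 libraries per fraction). According to the methods, the punches may have held some neighbouring striatum or nucleus accumbens, whose cells lack vGluT2, so that the pulldown should leave their RNA out of TRAP.

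Dopamine is made from tyrosine in a pair of steps, hydroxylation by tyrosine hydroxylase (Th) and decarboxylation by aromatic L-amino acid decarboxylase (Ddc), and is degraded by the monoamine oxidases Maoa and Maob at the outer mitochondrial membrane. Its receptors are G protein-coupled, and Drd1 and Drd5 encode receptors that raise cyclic AMP while Drd2 and Drd3 encode receptors that lower it. The VP receives dopamine from midbrain neurons and dense input from medium spiny neurons of the striatum, of which the direct pathway cells express Drd1 and the indirect pathway cells Drd2.

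The stretches of 250 bases before the annotated starts of Drd1, Drd2, Th and Ddc are shown because these genes form the pairs, receptors and consecutive synthesis steps, whose shifts are compared later. They were taken from RefSeq (GRCm38.p6), in which 7 of the 8 genes had an entry and Maob had none. Capitals mark the letters of the GC box (GGGCGG), the TATA box (TATAAA) and the cyclic AMP response element (TGACGTCA), searched on both strands with no overlap between motifs. Drd1 lies at chr13:54055659-54055908 (minus strand, the outer of 2 starts), Drd2 at chr9:49340153-49340402 (plus strand), Th at chr7:142899996-142900245 (minus strand) and Ddc at chr11:11898145-11898394 (minus strand, the outer of 2 starts). Gene spans and exon lengths given later come from another annotation, GENCODE M21. The Th window lies inside its wider Th span (chr7:142892752-142931128), and the Drd1 window overlaps its Drd1 span in part.
Drd1: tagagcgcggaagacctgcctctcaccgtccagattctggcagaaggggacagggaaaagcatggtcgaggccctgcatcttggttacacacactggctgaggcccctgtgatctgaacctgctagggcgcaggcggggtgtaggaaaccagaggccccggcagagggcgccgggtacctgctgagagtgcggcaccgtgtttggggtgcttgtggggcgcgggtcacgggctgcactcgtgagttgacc
Drd2: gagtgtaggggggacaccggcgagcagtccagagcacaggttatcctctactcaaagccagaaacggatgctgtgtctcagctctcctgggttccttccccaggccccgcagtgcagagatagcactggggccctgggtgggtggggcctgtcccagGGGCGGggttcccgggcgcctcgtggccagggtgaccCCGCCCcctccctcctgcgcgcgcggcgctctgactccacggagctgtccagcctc
Th: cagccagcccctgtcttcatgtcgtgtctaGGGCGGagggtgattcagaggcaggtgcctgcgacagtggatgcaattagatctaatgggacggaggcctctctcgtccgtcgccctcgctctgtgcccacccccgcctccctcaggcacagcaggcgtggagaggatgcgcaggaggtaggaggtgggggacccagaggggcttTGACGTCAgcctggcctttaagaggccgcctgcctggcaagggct
Ddc: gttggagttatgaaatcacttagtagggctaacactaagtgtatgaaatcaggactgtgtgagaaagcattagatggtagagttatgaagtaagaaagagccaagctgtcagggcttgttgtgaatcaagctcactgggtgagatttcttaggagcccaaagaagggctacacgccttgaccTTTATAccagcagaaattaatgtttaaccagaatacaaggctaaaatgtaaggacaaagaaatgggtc
The GC content of these windows was 64.0% for Drd1, 68.8% for Drd2, 64.4% for Th and 40.8% for Ddc. The Drd2 window held 2 GC boxes, beginning at -93 and -56 from the start, and the Th window held 1 at -220, while GC boxes were present in 32.7% of all 32851 mouse promoter windows of the same kind. The Th window also held the cyclic AMP response element at -45, a sequence found in 1.55% of promoters. The TATA box letters lay on the reverse strand at -68 of the Ddc window, with the same letters in 12.4% of promoters. The Drd1 window shown held none of the motifs, whereas the window of its inner start held a GC box at -133. Of the windows not printed, Drd5 held 2 GC boxes, Maoa held 1 and the inner start of Ddc held none of the motifs.

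Values are log2 CPM as deposited, and levels are also given as CPM. CPM are the reads of a gene scaled to the size of its library. TRAP and INPUT of the same pool deviated from their fraction means in opposite directions across genes (r = -0.745 to -0.495). Whether the values were also adjusted by pool before deposit was not tested, so levels and SDs of single fractions may not be those of plain scaled reads. TRAP and INPUT were compared with limma over the 14249 genes over 1 CPM in at least 3 libraries, with the pool as a block and Benjamini-Hochberg adjustment, and a gene was called at an adjusted p under 0.05. All 7 genes with values passed this filter. As a check of the pulldown, Slc17a6, which encodes vGluT2, was at 143 ± 13.6 CPM in TRAP and 25.9 ± 10.3 CPM in INPUT (SD, n = 4), a log2 difference of 2.55 (SE 0.245, limma adjusted p = 7.30e-06). Of all genes tested, 32.2% were called, 15.4% higher and 16.8% lower in TRAP, and the median difference was -0.05. Without the block, 47.9% were called, 23.2% higher and 24.8% lower. Depth could be estimated for 2 pools, at 12.6 M (TRAP) and 38.2 M (INPUT) reads for VP2.2 and 12.4 M and 24.7 M for VP2.6, and is unknown for the others.

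Among the 7 dopamine genes, Drd1, Drd2 and Ddc were lower in TRAP, Maob was higher, and Drd5, Th and Maoa were not called. These 3 lower and 1 higher calls stand against the 32.2% of all genes called. In 6 of the 7 genes the TRAP and INPUT libraries did not overlap, which was also so for 47.7% of all genes tested. The exact two-sided permutation test of 4 against 4 libraries gave p = 0.0286 for each of the 6. That is the smallest value of this test, and it follows from the lack of overlap. The test ignores the pairing by pool, and with 4 pools as pairs no exact sign-flip p can be below 0.125. Th and Maoa are among the 6 and were not called by limma.

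**Figure D1:**
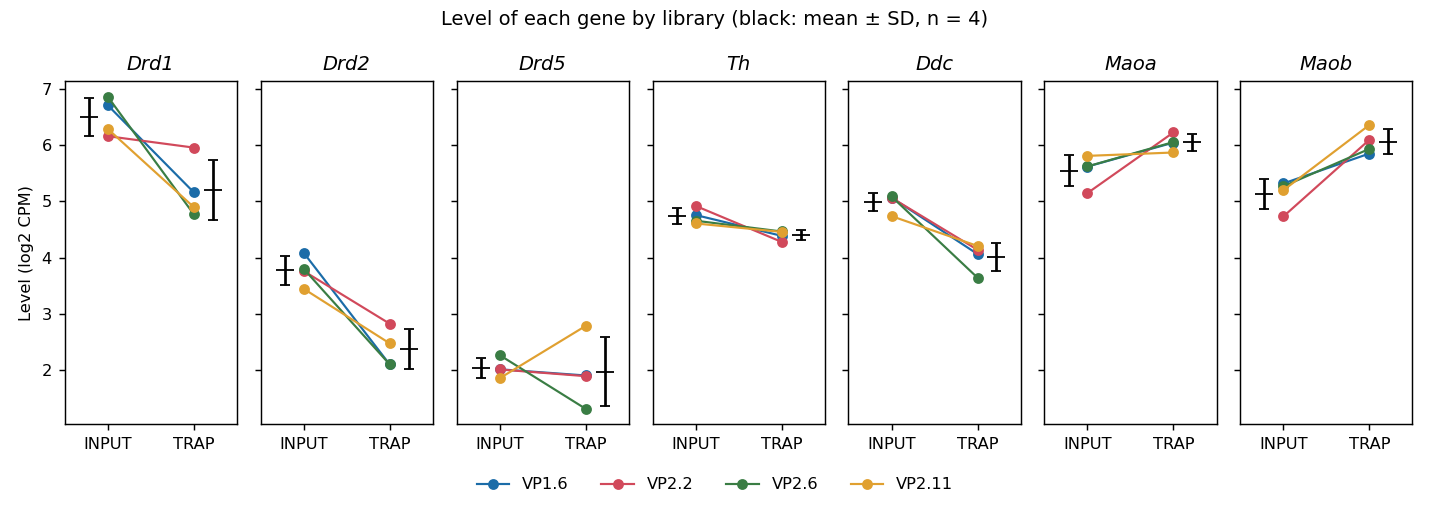
Level (log2 CPM) of each gene in the INPUT and TRAP library of each pool, with libraries of a pool joined and black bars for mean ± SD (n = 4). TRAP lies below INPUT in all 4 pools for Drd1, Drd2, Th and Ddc and above it in all 4 for Maoa and Maob, while the fractions of Drd5 overlap.

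Drd1, the receptor gene of direct pathway medium spiny neurons (chr13:54051183-54055705, minus strand, GRCm38), was at 35.8, 62.1, 27.4 and 29.9 CPM in TRAP, with pools in the order VP1.6, then VP2.2, VP2.6 and last VP2.11, an order kept for all genes. In INPUT of the same pools it was at 105, 71.5, 116 and 78.2 CPM. TRAP was below INPUT in every pool, and the highest TRAP library, VP2.2, paired with the lowest INPUT library. Such opposite deviations were general, since TRAP and INPUT of VP2.2 correlated at r = -0.661 across genes after fraction means were taken out. The means were 38.8 ± 16.0 CPM in TRAP and 92.7 ± 21.3 CPM in INPUT (SD, n = 4), so that Drd1 was 2.47-fold higher in INPUT by mean log2 values. The log2 difference of TRAP minus INPUT was -1.31 (SE 0.275, 95% interval -1.90 to -0.72, limma adjusted p = 0.00272), and 11.5% of all genes tested had a lower difference. Within pools it was -1.55, -0.20, -2.09 and -1.39, with VP2.2 nearest to 0. Without VP2.2 it was -1.68 (limma adjusted p = 0.000306).

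Drd2, the receptor gene of indirect pathway medium spiny neurons and the autoreceptor gene of dopamine neurons (chr9:49340627-49408177, plus strand), was below Drd1 per kilobase of exon in both fractions. Its TRAP values were 4.302, 7.11, 4.305 and 5.58 CPM, against 17.0, 13.6, 14.0 and 10.9 CPM in INPUT. Again TRAP lay below INPUT in every pool without overlap, and VP2.2 had the highest TRAP value. Means were 5.32 ± 1.33 and 13.9 ± 2.498 CPM (SD, n = 4), a log2 difference of -1.40 (SE 0.316, 95% interval -2.07 to -0.72, limma adjusted p = 0.00411). Within pools the difference of Drd2 was -1.99, -0.94, -1.70 and -0.97. In the pools of estimated depth, level times depth gave about 90 TRAP and 519 INPUT reads in VP2.2, and 53 and 345 reads in VP2.6.

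Drd5 encodes the other receptor that raises cyclic AMP (chr5:38319367-38322518, plus strand), and its levels per kilobase of exon were the lowest of the 7 genes in both fractions. It was at 3.76, 3.73, 2.49 and 6.92 CPM in TRAP and at 4.06, 4.05, 4.83 and 3.63 CPM in INPUT. The fractions overlapped, with the highest and the lowest value both in TRAP. The log2 difference was -0.06 (SE 0.412, 95% interval -0.94 to 0.82, limma adjusted p = 0.922), and the exact permutation test of 4 against 4 libraries gave p = 0.80 (two-sided). It was -0.95 in VP2.6 and 0.93 in VP2.11, and its sign turned on 1 pool, since the mean was 0.23 without VP2.6 and -0.39 without VP2.11. For Drd5 in VP2.6, level times depth gave about 31 TRAP and 119 INPUT reads. An antisense gene, Gm26560, covers 1531 bases of the Drd5 exon, and no source used here states whether reads were counted by strand, so the Drd5 level is uncertain.

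The shifts of Drd1 and Drd2 were not told apart, and the pools differed in which of the genes shifted more. The Drd1 difference minus the Drd2 difference was 0.44 in VP1.6, 0.73 in VP2.2, -0.39 in VP2.6 and -0.42 in VP2.11, with a mean of 0.09 ± 0.58 (SD, n = 4 pools). An exact two-sided sign-flip permutation test gave p = 0.75, where 0.125 is the smallest value that 4 pools allow, so that no pair compared here could pass the threshold. Drd1 minus Drd5 was below 0 in 4 of 4 pools, from -0.08 in VP2.2 to -2.32 in VP2.11, with a mean of -1.24 ± 0.92 (SD, n = 4; exact p = 0.125, adjusted p = 0.167 over the 4 pairs compared).

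Per kilobase of exon, Drd1 exceeded Drd2 by 5.05 ± 1.13 times in TRAP and 4.72 ± 0.927 times in INPUT (SD, n = 4). The ratio was higher in TRAP than in INPUT in VP1.6 and VP2.2 and lower in VP2.6 and VP2.11. The Drd1 to Drd5 ratio was 19.4 ± 3.07 in INPUT and 9.01 ± 4.41 in TRAP, with TRAP values from 3.75 in VP2.11 to 14.5 in VP2.2.

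**Figure D2:**
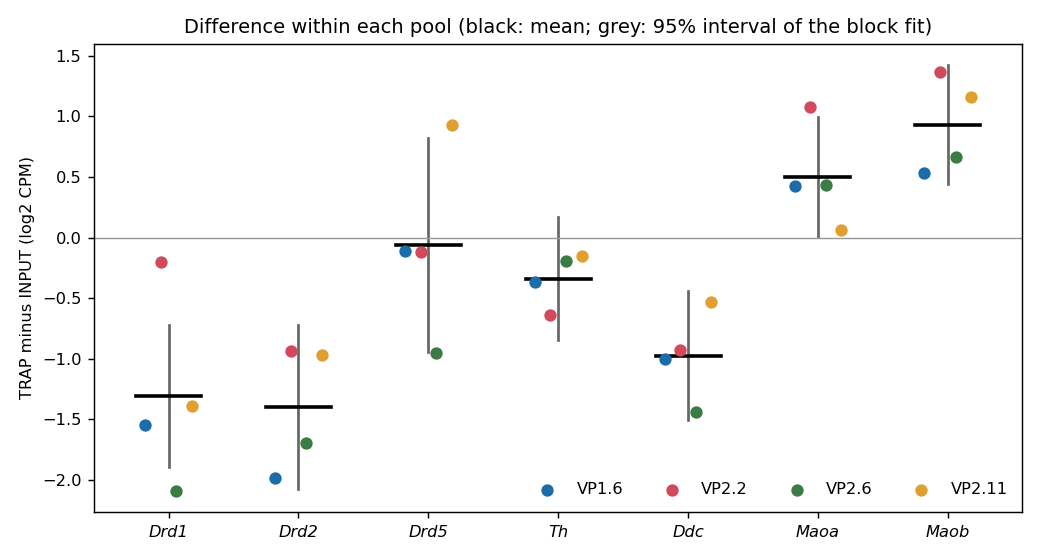
TRAP minus INPUT (log2 CPM) of each gene within each pool (coloured points), with the mean as a black bar and the 95% interval of the block fit in grey. Intervals of Drd1, Drd2 and Ddc lie below 0 and those of Maoa (0.01 to 0.99) and Maob above it, while those of Drd5 and Th cross 0.

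Most markers of striatal medium spiny neurons moved with both receptors. Of 20 such markers, all with values, 12 were lower in TRAP and 0 higher by limma at the same threshold, by which 16.8% of all genes were lower (by the fit without the block 14 and 0, against 24.8% of all genes lower), and their median log2 difference was -1.18, against -0.05 for all genes tested. Their summed level was 2140 to 2992 CPM in TRAP and 5295 to 6829 CPM in INPUT. Of this, Arpp21 alone made up 763 ± 99.7 CPM in TRAP and 2430 ± 400 CPM in INPUT (mean ± SD, n = 4). Tac1, a peptide precursor of direct pathway cells, fell from 386 ± 74.6 CPM in INPUT to 115 ± 23.7 CPM in TRAP (SD, n = 4; log2 difference -1.75, SE 0.228, limma adjusted p = 0.000106). Adora2a, the adenosine receptor gene of indirect pathway cells, fell from 37.1 ± 8.77 to 9.33 ± 4.21 CPM (log2 difference -2.07, SE 0.322, limma adjusted p = 0.000368). Not called were 8 of the 20 markers, among them Chrm4 (log2 difference 0.11), Rgs9 (-0.06) and Gnal (-0.10). In pool VP2.2, where Drd1 differed least between fractions, the median difference of the 20 markers was -0.69, against -1.1 to -1.45 in the other pools, and 10 of the 20 (50.0%) had their highest difference there, as did 5 of 10 astrocyte markers and 32.3% of all genes tested. The part of medium spiny neuron RNA in the receptor values was not tested. In bulk libraries such as these, fewer cells of a type and less RNA per cell cannot be told apart.

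Th, the rate-limiting enzyme of catecholamine synthesis (chr7:142892752-142931128, minus strand), was close in both fractions. It was at 20.96, 19.5, 22.1 and 22.01 CPM in TRAP and at 27.1, 30.3, 25.3 and 24.4 CPM in INPUT. All TRAP values lay below all INPUT values, with the widest gap in VP2.2. The log2 difference was -0.34 (SE 0.237, 95% interval -0.85 to 0.17, limma adjusted p = 0.296), below 0 in 4 of 4 pools and not past the threshold. The fit without the block gave a limma adjusted p of 0.0569.

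Ddc, which carries out the decarboxylation that follows (chr11:11814101-11898144, minus strand), was at 16.8, 17.7, 12.5 and 18.5 CPM in TRAP. In INPUT it was at 33.6, 33.5, 34.03 and 26.7 CPM, with VP2.11 below the others. The fractions did not overlap, and Ddc was 16.4 ± 2.66 CPM in TRAP against 32.0 ± 3.50 CPM in INPUT (SD, n = 4). The log2 difference was -0.97 (SE 0.249, 95% interval -1.51 to -0.44, limma adjusted p = 0.00843). Within pools it ranged from -1.44 in VP2.6 to -0.53 in VP2.11, and without VP2.6 it was -0.82 and no longer passed the threshold (limma adjusted p = 0.0764).

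The Th difference was less negative than the Ddc difference in 4 of 4 pools, by 0.63, 0.28, 1.25 and 0.38 (VP1.6, VP2.2, VP2.6, VP2.11). The mean gap was 0.64 ± 0.43 on the log2 scale (SD, n = 4). The exact sign-flip permutation test gave p = 0.125, the smallest possible, and an adjusted p of 0.167. Per kilobase of exon, the Th to Ddc ratio was 1.59 ± 0.155 in INPUT and 2.51 ± 0.564 in TRAP, and higher in TRAP in every pool.

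Of 11 markers of dopaminergic neurons, Th and Ddc among them, 6 had values. Those without a row were Slc6a3 (the plasma membrane dopamine transporter) and the transcription factor genes Pitx3, En1, Lmx1b and Foxa2. Higher in TRAP were Nr4a2, a transcription factor of dopamine and other neurons, at 18.7 ± 3.66 against 6.86 ± 2.109 CPM (log2 difference 1.49, SE 0.306, limma adjusted p = 0.00231), and Ret, a receptor tyrosine kinase gene, with a difference of 1.84. Lower in TRAP were Ddc and Aldh1a1, an aldehyde dehydrogenase gene, with a log2 difference of -1.51 for the latter. The summed level of the 6 markers was 76.1 to 87.7 CPM in TRAP and 99.2 to 110 CPM in INPUT. Th and Ddc are part of this sum, so it is not a separate measure for them. The part of dopaminergic RNA in the Th and Ddc values was not tested. Of 7 markers of other monoaminergic neurons only Hdc and Tph2 had values, and neither was called by limma.

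Maoa, the oxidase that prefers serotonin and noradrenaline (chrX:16619698-16687818, plus strand), was at 66.1, 74.9, 66.5 and 58.5 CPM in TRAP and at 49.2, 35.5, 49.3 and 56.1 CPM in INPUT. Every TRAP library was above every INPUT library, by little in VP2.11. The log2 difference was 0.50 (SE 0.23, 95% interval 0.01 to 0.99, limma adjusted p = 0.11), and of the 13 alternatives run it passed only in the fit without the block (limma adjusted p = 0.0253). In VP2.2 the difference was 1.08, and in the other pools 0.06 to 0.43, and without VP2.2 the mean difference was 0.31 (limma adjusted p = 0.252).

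Maob, the oxidase of phenylethylamine that is abundant in glia and some monoaminergic neurons (chrX:16709282-16817366, minus strand), was at 57.8, 68.5, 61.2 and 82.1 CPM in TRAP. In INPUT it was at 39.9, 26.6, 38.6 and 36.8 CPM. All TRAP values were above all INPUT values, and the lowest INPUT value was in VP2.2. The means were 67.4 ± 10.8 and 35.5 ± 6.05 CPM (SD, n = 4), a log2 difference of 0.93 (SE 0.23, 95% interval 0.44 to 1.42, limma adjusted p = 0.00704). It was positive in 4 of 4 pools, from 0.53 in VP1.6 to 1.36 in VP2.2, and 88.0% of all genes tested had a lower difference.

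Most astrocyte markers went in the opposite direction from Maob. Of 10 astrocyte markers, all with values, 8 were lower in TRAP and 0 higher, against 16.8% of all genes lower, with a median log2 difference of -1.39, and their summed level was 387 to 577 CPM in TRAP and 666 to 881 CPM in INPUT. Gja1, a gap junction gene, was at 26.2 ± 11.4 CPM in TRAP and 111 ± 23.8 CPM in INPUT (log2 difference -2.14, SE 0.234, limma adjusted p = 2.33e-05). Gjb6, another gap junction gene, had the largest difference of the list at -2.56, and Fgfr3 and Sox9 had -2.0 and -1.95. The marker with the highest INPUT level, the glutamate transporter gene Slc1a2, was not called, at 201 ± 37.3 CPM in TRAP and 176 ± 47.2 CPM in INPUT (log2 difference 0.21, SE 0.258, limma adjusted p = 0.555).

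The Maob difference exceeded the Maoa difference by 0.11, 0.28, 0.23 and 1.1 on the log2 scale. The mean was 0.43 ± 0.45 (SD, n = 4; exact p = 0.125, adjusted p = 0.167). Per kilobase of exon, the Maob to Maoa ratio was 1.12 ± 0.102 in INPUT and 1.54 ± 0.376 in TRAP, the latter with 2.10 in VP2.11 and 1.31 to 1.37 elsewhere.

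**Figure D3:**
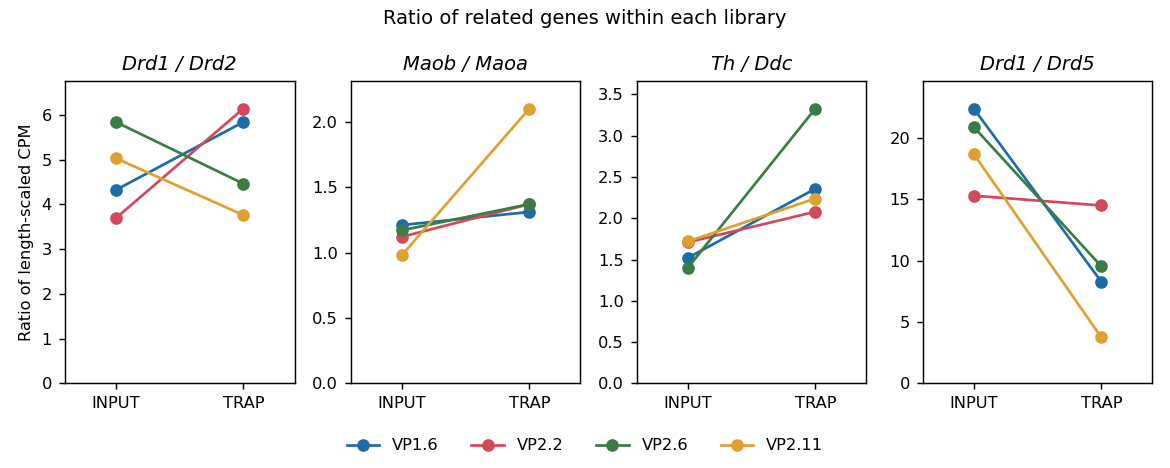
Ratio of related genes, as CPM per kb of exon, in the INPUT and TRAP library of each pool. Th over Ddc and Maob over Maoa are higher in TRAP in all 4 pools, Drd1 over Drd5 is lower in all 4, and Drd1 over Drd2 is higher in TRAP in 2 pools and lower in 2.

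The order of the length-scaled levels differed between the fractions. In INPUT, Drd1 was the highest at 25.6 ± 5.87 CPM per kb, followed by Maob at 12.7, Maoa at 11.4 and Th at 11.3, then Ddc at 7.16, Drd2 at 5.45 and Drd5 at 1.31 CPM per kb. There, Maob, Th and Maoa overlapped one another, as did Ddc and Drd2, although Ddc was above Drd2 in each of the 4 libraries. In TRAP, Maob was highest at 24.2 ± 3.87 CPM per kb, followed by Maoa at 16.0, Drd1 at 10.7, Th at 8.94, Ddc at 3.67, Drd2 at 2.09 and Drd5 at 1.34 CPM per kb. There the neighbours Maoa and Drd1, Drd1 and Th, and Drd2 and Drd5 overlapped, and each other pair of neighbours did not. Drd1 was above Th in 2 of the 4 TRAP libraries.

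**Figure D4:**
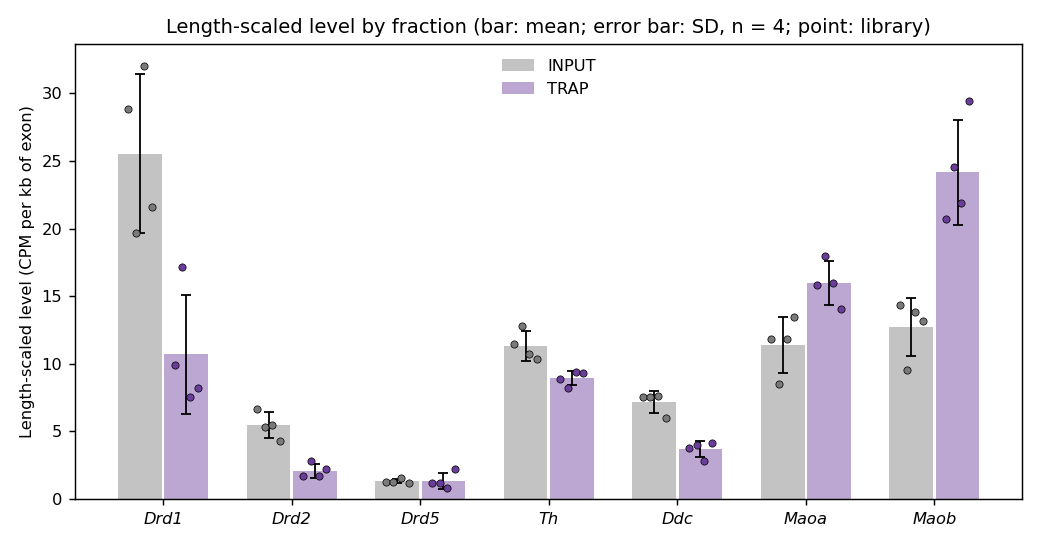
Length-scaled level (CPM per kb of exon) of each gene in INPUT (grey) and TRAP (violet), with bars for the mean, error bars for SD (n = 4) and points for libraries. Drd1 is the highest bar in INPUT (25.6) and Maob in TRAP (24.2).

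The rest of the dopamine pathway was described from 44 further genes, of which 37 had values, and 1 was higher and 11 lower in TRAP, where 32.2% of all genes were called. Without the block 3 were higher and 13 lower, where 47.9% of all genes were called. Their median log2 difference was -0.18, against -0.05 for all genes tested. Of 6 monoamine transporters, 3 had values, and 0 were called in limma with or without the block (0 also had an unadjusted p under 0.05). Slc18a2, which loads monoamines into vesicles, was at 9.18 ± 2.76 CPM in TRAP and 8.14 ± 1.97 CPM in INPUT (log2 difference 0.15, SE 0.345). Drd4, the remaining dopamine receptor gene, had no row.

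Of 7 genes that make or recycle tetrahydrobiopterin, the cofactor of Th, 6 had values, and 3 were lower and 0 higher in TRAP, against 16.8% of all genes lower. Pts, a synthesis enzyme, was at 21.6 ± 4.80 CPM in TRAP and 46.9 ± 8.18 CPM in INPUT (log2 difference -1.13, SE 0.258, limma adjusted p = 0.0044). Qdpr, which recycles the cofactor, had a log2 difference of -0.95, and Gchfr, a regulator of its synthesis, had one of -2.07. Of 8 other genes of catecholamine metabolism, 6 had values. Aldh2, an aldehyde dehydrogenase gene, was higher in TRAP at 63.8 ± 6.69 against 28.3 ± 7.66 CPM (log2 difference 1.22, SE 0.248, limma adjusted p = 0.00219). Aldh1a1 and the sulfotransferase gene Sult1a1, with a log2 difference of -2.78, were lower. Akr1b3, an aldose reductase gene with the highest INPUT level of this list, was not called (log2 difference 0.38, SE 0.249, limma adjusted p = 0.266).

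Of 22 genes for coupling and signalling of dopamine receptors, all with values, 6 were lower and 0 higher in TRAP, where 32.2% of all genes were called. Without the block 8 were lower and 1 higher, where 47.9% were called. Gng7, a G protein gamma subunit of striatal neurons, was at 74.4 ± 23.1 CPM in TRAP and 678 ± 279 CPM in INPUT (log2 difference -3.15, SE 0.212, limma adjusted p = 2.19e-07). Ppp1r1b, which encodes a phosphatase inhibitor of medium spiny neurons, was at 114 ± 11.6 against 292 ± 69.6 CPM, a log2 difference of -1.34 (SE 0.22, limma adjusted p = 0.000539). Adcy5, an adenylyl cyclase gene, had a log2 difference of -1.04, and Ppp1ca, a phosphatase subunit gene, one of -1.02. Gng7, Ppp1r1b and Adcy5 are also among the medium spiny neuron markers. So are Gnal, Rgs9 and Pde10a, which were not called (log2 differences -0.10, -0.06 and -0.475).

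**Figure D5:**
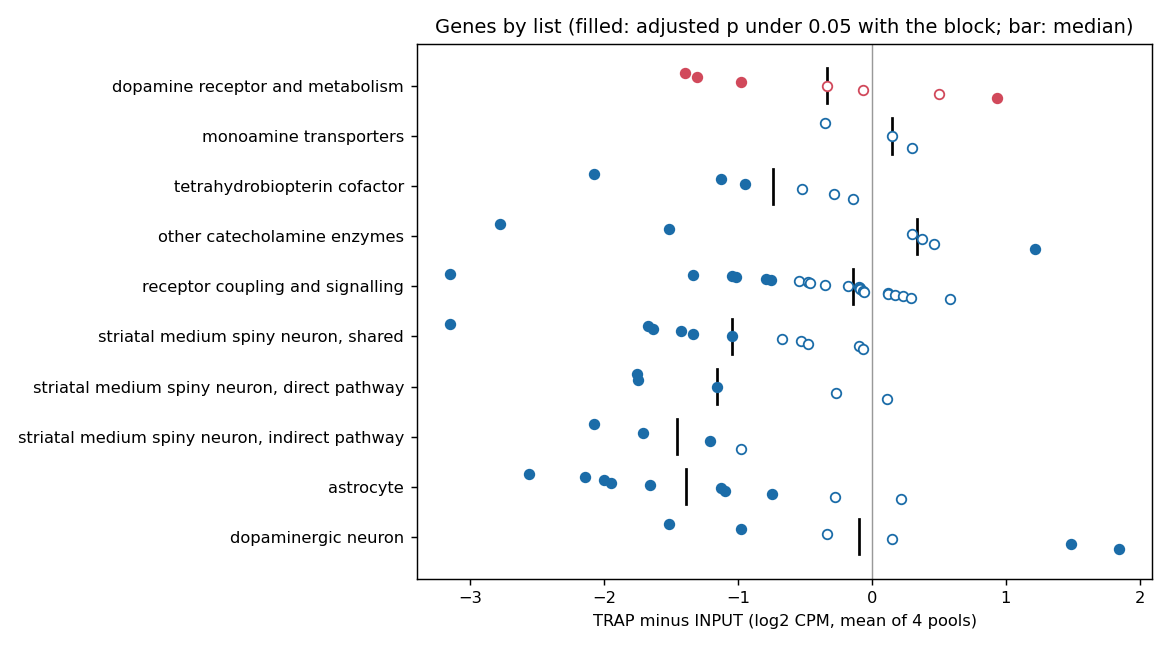
TRAP minus INPUT (log2 CPM, mean of 4 pools) of each gene with values, by list, with filled points for an adjusted p under 0.05 and a black bar for the median. Medium spiny neuron and astrocyte markers have medians from -1.04 to -1.46, and the 7 dopamine genes spread from -1.40 to 0.93.

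For each gene, the genes with the most similar values over the 8 libraries were sought among all genes tested, by Pearson's r on the log2 values. For Drd1 these were Kctd6 and Tmeff1 (r = 0.995 for both) and BC005537 (r = 0.994), and for Drd2 Tshz1, Slc25a18 and Fyn (r = 0.996 for each). Dtwd2 (r = 0.995) led for Drd5, Ppil3 (r = 0.999) for Th, Gm12816 (r = 0.999) for Ddc, Kmt2a (r = 0.999) for Maoa and Tnrc6b (r = 0.999) for Maob. These values describe 4 pools in 2 fractions that share their tissue, and each is the highest of 14249 genes tested.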

How the data were processed

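RNA of the TRAP and INPUT fractions was sequenced by the authors, aligned with STAR 2.5.1a, counted per gene as uniquely mapped reads with featureCounts, scaled with TMM factors in edgeR and fitted in limma with voom. The methods name an unbound fraction where the labels name INPUT, and give more samples than the 4 labelled pools. The deposited values are log2 CPM. Of the 8 columns, those of both VP2.11 libraries and of the INPUT library of VP1.6 hold only 3 significant digits. The authors' own fold changes with their limits, test statistics, p-values and linear fold changes stand beside them and were not used.

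Of 14398 entries, 45 repeats of a gene were dropped. TRAP was compared with INPUT in limma 3.58.1 (lmFit, eBayes with trend; R 4.3.3) on genes over 1 CPM in at least 3 libraries, with the pool as a block, because the methods take TRAP and INPUT of a pool from 1 homogenate. Deviations of same-pool libraries from their fraction means correlated at -0.745 to -0.495 across genes, against 0.0457 to 0.441 for different pools. These negative values are the reverse of levels shared within a pool and are no support for the block. Their cause was not tested. The fit without the block and the 4 against 4 test take the libraries as independent, so their p-values need caution. The study's methods give the fraction alone, which was run as an alternative, and both fits give the same differences. P-values were adjusted by Benjamini-Hochberg over 14249 genes.

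Depth was estimated from TRAP minus INPUT differences of low genes. Steps of whole reads were found for 94.3% of 820 (VP2.2) and 99.1% of 881 (VP2.6) of these genes. Reads of single genes were taken as level times depth, so any adjustment of the levels would carry into them. No count test was run, since the rounded columns give no reads. Positions and exon lengths came from GENCODE M21 (GRCm38), matched for all 14353 genes. The genes, lists and tests were chosen with earlier results of these data known. By the rule for named genes, each list gives at most 4 called genes, those with the largest differences, and the gene with the highest INPUT level, and the text names genes from among these. Tph2, Gad1, Chrm4, Gnal, Rgs9 and Pde10a were named after their values were seen. Tests of the differences between genes used the 4 pools.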

Additional observations from a re-analysis of the deposited data

Results flagged for a closer look

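In INPUT of pool VP2.11, Ddc was at 4.74 log2 CPM, apart from the other INPUT libraries, which lay between 5.07 and 5.09. Its gap to the nearest library took up 0.934 of the range of the 4 libraries, above Dixon's critical value for groups of 4. The same pool had the smallest Ddc difference between TRAP and INPUT (-0.53), and without it the difference was -1.12 (limma adjusted p = 0.00955). This was 1 of 21 groups of values examined for the 7 genes, and chance flags about 1 group in 20.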

How the results depend on the processing

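Without the replicate block, limma called 6830 genes against 4592 with it, and 5 of the 7 dopamine genes against 4, the added one being Maoa (0.50, adjusted p = 0.0253). The blocked and unblocked fits gave the other 6 genes the same call. With only VP2.2 and VP2.6, the pools with unrounded values, 2134 genes, 7 further pathway genes and 0 of the 7 dopamine genes were called by limma (4 had an unadjusted p under 0.05), where Drd1 was -1.15 (adjusted p = 0.0703), Drd2 -1.32 (0.0605), Ddc -1.18 (0.0627) and Maob 1.01 (0.116). That fit has fewer samples. Requiring a log2 difference of at least 1 kept 2 of the dopamine calls, Drd1 and Drd2. Leaving out 1 pool at a time gave Drd5 differences from -0.39 to 0.23, Ddc differences from -1.12 to -0.82 and Drd1 minus Drd2 from -0.12 to 0.26. The last was -0.03 without VP1.6, -0.12 without VP2.2 and -0.04 on log2(CPM + 1), and the cause was not tested. Over all 13 alternatives, limma differences ran from -1.68 to -1.05 for Drd1, -1.62 to -1.20 for Drd2 and 0.76 to 1.06 for Maob. Taking out the trend with exon length, which had a Spearman correlation of 0.412 with the difference across genes, turned 2199 higher and 2393 lower calls into 1680 and 2990 and left all 7 dopamine genes with the same call. Drd2 could not be compared with Drd3, which had no values. The read depth of VP1.6 and VP2.11 is unknown, and Drd5 and Drd2 are the genes with fewest reads by level times depth in the other pools.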

Other observations

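Of 5 glutamatergic neuron markers, all 5 were higher in TRAP, with a median log2 difference of 2.55, among them Tbr1 (3.16) and Neurod1 (2.84). Of 6 oligodendrocyte markers 5 were lower, and of 6 microglial markers 4. Of all genes tested, 15.4% were higher and 16.8% lower. Of 5 endothelial markers, 3 had values and 1 was called. This was Flt1, a growth factor receptor gene, higher in TRAP at 8.90 ± 7.999 CPM against 1.56 ± 0.784 CPM (SD, n = 4; log2 difference 2.37, SE 0.547, limma adjusted p = 0.00466). Kdr, with the highest INPUT level of the list, was not called (0.89, limma adjusted p = 0.148). Of 3 GABAergic markers, Slc32a1 was lower in TRAP (-1.26), while Gad1 (0.30) and Gad2 (-0.05), at higher levels in both fractions, were not called. Of 4 cholinergic markers, Slc18a3 was lower (-1.75), and Chat was at 59.2 ± 12.9 CPM in TRAP and 37.0 ± 10.97 CPM in INPUT without a call (0.70, limma adjusted p = 0.0655).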
